A study of Mus musculus with 12 samples.

Results

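The genes described here are 35 named rows of the deposited expression table: 16 enzymes of glycolysis, 4 carriers of glucose or lactate, 4 kinases that set glycolytic or pyruvate flux, 4 genes of oxygen sensing and 7 other known targets of the hypoxia-inducible factors (HIF). They were chosen by name, all 35 were present among the 24421 genes of the table, and all 35 were among the 18948 genes tested. Glycolysis breaks glucose down to pyruvate in the cytosol, and lactate dehydrogenase turns pyruvate into lactate, which leaves the cell through monocarboxylate carriers. When oxygen is scarce, prolyl hydroxylases of the Egln family no longer mark the HIF alpha subunits for destruction, and the factors then raise many genes of glucose uptake, glycolysis and adaptation to hypoxia. Tumors often take up much glucose and contain poorly perfused regions, and the bone marrow is itself a tissue of low oxygen tension.

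The study used bulk RNA of freshly isolated mouse samples in 3 groups: marrow mesenchymal stem cells (MSCs) of p53 wild-type (WT) animals with 3 libraries, MSCs of p53 knockout (KO) animals with 3, and sarcomas of bone or bone marrow in knockout animals with 6. The MSC sort kept cells with LepR (leptin receptor) and CD140a on their surface and discarded those with CD45, Ter119 or CD31, whereas tumor RNA came from TRIzol extracts for which the labels mention no sort. Age, sex, the knockout allele or Cre driver, and whether libraries of a group are separate animals are not in the labels. The p-values below therefore reflect the spread among these libraries, part of which may be technical. Values are stabilized log2 values with a floor for genes without reads, so a difference of 1 is a doubling for well-expressed genes and less than the true change for low ones.

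Several facts of the libraries touch the results. Libraries 1 of both MSC groups and tumors 1 to 3 formed batch 1, the rest batch 2, as told from exactly shared floor values, so batch 1 holds 1 library of each MSC group. Trp53 was 9.96, 10.04 and 10.61 in WT MSC, 10.49, 9.76 and 6.96 in the libraries labelled KO_MSC 1, 2 and 3, and between 6.79 and 9.16 in tumors. The libraries labelled KO_MSC 1 and 2 thus lay at the WT level, which goes against their label, and whether the knockout allele leaves a transcript is not given. "KO MSC" below means the libraries so labelled. Of the MSC libraries of batch 1, that labelled KO_MSC 1 had 1181 genes at their floor and WT_MSC 1 had 2279, against 7800 to 10885 in the other 10, with the most in the library labelled KO_MSC 3. The precursor of ribosomal RNA, Rn45s, was 16.05 to 16.78 in WT MSC, 17.92, 17.50 and 19.75 in the libraries labelled KO_MSC 1, 2 and 3 and 13.35 (tumor 4) to 17.60 in tumors, and its part in the results was not tested. The mean of 10 LepR+ stromal markers was 12.44 to 13.55 in WT MSC, 11.14 to 12.02 in KO MSC and 6.80 to 9.17 in tumors. Tumors carried macrophage transcripts: the mean of 11 macrophage markers was 10.91 to 14.20 there and 4.94 to 6.55 in MSCs, and all 11 rose against both MSC groups. Up to 8 of these 11 were at the floor in an MSC library and 0 in any tumor. Endothelial markers averaged 7.01 to 9.21 in tumors and 5.46 to 5.96 in MSCs. Neutrophil markers averaged 6.96 to 11.96 in MSCs and 5.13 to 7.25 in tumors, and erythroid markers 10.10 to 12.73 and 7.47 to 11.10, although the sort was to remove blood cells. Of the neutrophil markers, 6 of 11 fell against KO MSC and 4 of 11 against WT MSC, and of the erythroid markers 6 of 15 in each. The mean of 8 lymphocyte markers was 5.53 to 7.03 in tumors and 4.99 to 5.52 in MSCs, and 2 rose against KO MSC (Cd3d and Cd3g) and 3 against WT MSC (with Cd2 added). In bulk samples, fewer cells of a type and less RNA per cell cannot be told apart, and the part of these other cells in the results below was not tested.

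Tumors differed from KO MSC in 3 of the 35 genes. Hk2, the hexokinase isozyme known for its induction in tumors, and Ankrd37, an ankyrin repeat protein gene known as a HIF target, rose, and Slc2a3, the high-affinity neuronal glucose transporter GLUT3, fell. The 3 genes are 8.57% of the 35, while 4.98% of all genes passed in this comparison (limma, adjusted p under 0.05, 2.7% higher and 2.28% lower). With quantile scaling of the libraries, 2 rose and 2 fell, with Slc16a1 added, beside 7.82% of all genes. Without the library labelled KO_MSC 1, 0 of the 35 genes and 0.596% of all genes passed. In batch 1 alone, which holds 1 library of KO MSC, Slc2a3 changed by -2.88, Hk2 by 2.46 and Ankrd37 by 2.46. With batch 2 alone, 0 of the 35 genes passed, beside 1.21% of all genes. The groups did not overlap in 6 genes, or 17.1%, against 13.4% of all genes. At an unadjusted p under 0.05 there were 12 of the 35 genes, beside 26.5% of all genes. The median change of the 35 genes was 0.76, with 23 above 0 and 12 below, beside a median of 0.04 over all tested genes. It depended on the scaling: under quantile scaling it was 0.25, beside -0.01 over all genes. Against WT MSC, 8 genes passed: Hk2, Pgk1, Bnip3, Car9, Egln1 and Ankrd37 rose, and Slc2a3 and Epas1 fell. With quantile scaling, 6 rose and 5 fell, with Hk1, Pfkl and Eno2 added, beside 23% of all genes. The 8 genes are 22.9% of the 35, near the 21.3% of all genes that passed (10.4% higher, 10.9% lower), and the groups did not overlap in 12 genes, or 34.3%, against 25.2% of all genes. At an unadjusted p under 0.05 there were 18 of the 35, beside 37.2% of all genes. The median change was 0.11, with 19 genes above 0 and 16 below, beside -0.06 over all genes. Under quantile scaling it was -0.07, beside -0.003 over all genes. Both comparisons use the same 6 tumors, so their calls are not independent.

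In KO MSC against WT MSC, 0 of the 35 genes and 0% of all genes passed (limma). The lowest adjusted p was 0.551. Pgk1, Hif1a, Epas1 and Adm, 4 of the 35, had an unadjusted p under 0.05, a share above the 8.64% of all genes. With library weights, whose estimation stopped before it converged, 3 of the 35 passed (Hk1, Pgk1 and Epas1), or 8.57%, beside 12.9% of all genes. With KO_MSC 3 as the only library of its label, the median change of the 35 genes was -0.37, beside -0.16 over all genes. That fit takes its spread from WT MSC alone, so its calls are not given. This library also had the highest Rn45s and the most genes at their floor, as given above. The groups did not overlap in 8 genes, or 22.9%, against 15.2% of all genes, and the median change was -0.02, beside -0.01 over all genes. This comparison shares its libraries with the other two.

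**Figure D1:**
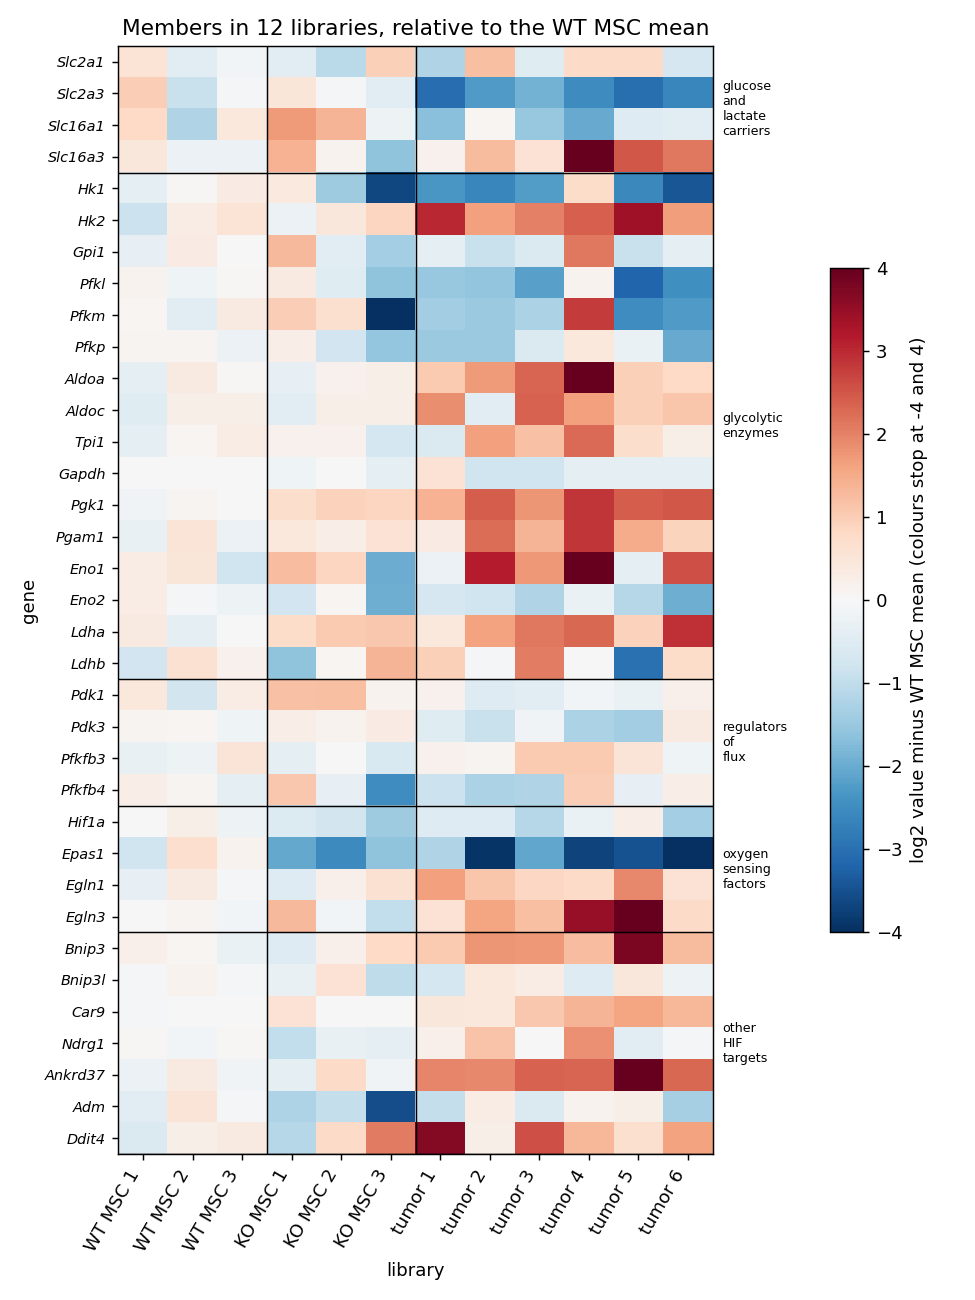
Stabilized log2 value of each of the 35 genes (rows, by role) in each of the 12 libraries (columns), minus the mean of the 3 WT MSC libraries. Colours stop at -4 and 4. Ankrd37, Hk2 and Pgk1 are above the WT MSC mean in 6 of 6 tumors, Slc2a3 and Epas1 below it in 6 of 6, and 11 of 16 enzymes have their highest tumor value in tumor 4.

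**Figure D2:**
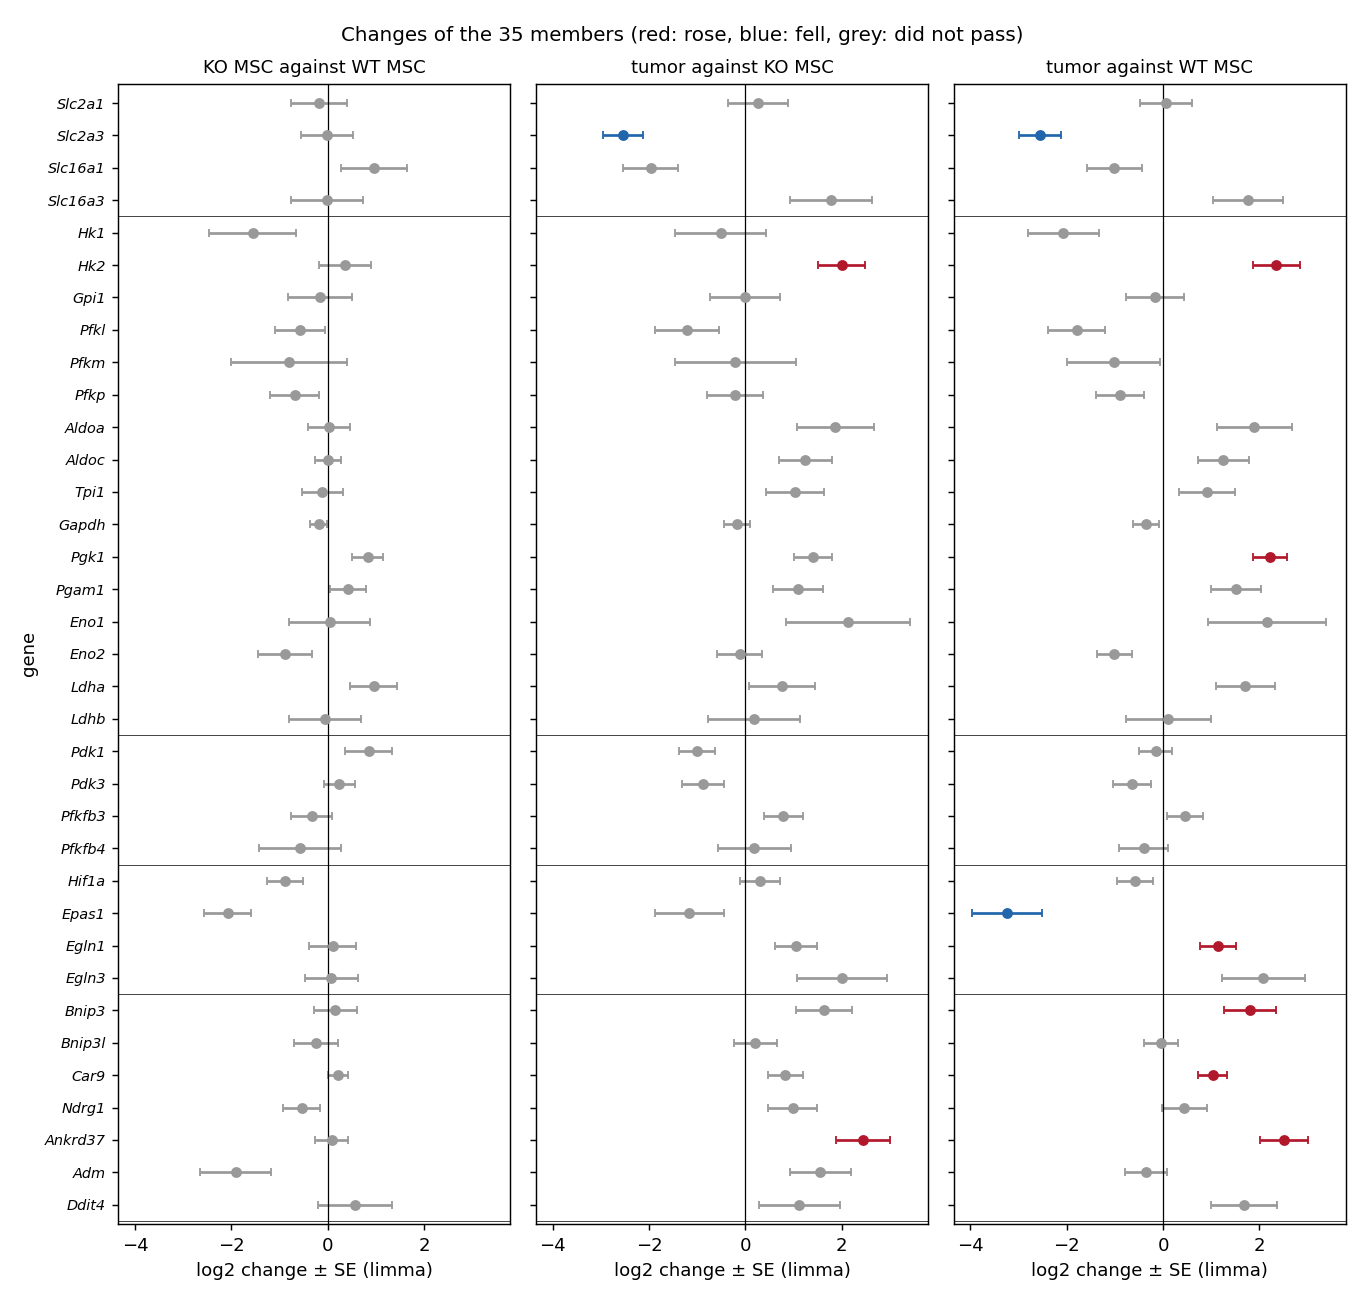
Log2 change and standard error (limma) of each gene in the 3 comparisons, by role from carriers at the top to HIF targets at the bottom. Red genes rose, blue genes fell and grey genes did not pass, with 0 genes coloured in KO MSC against WT MSC, 3 in tumor against KO MSC and 8 in tumor against WT MSC.

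Among the carriers, Slc2a3 was 10.27, 8.39 and 9.20 in WT MSC, 9.76, 9.20 and 8.84 in KO MSC and 6.22, 7.03, 7.40, 6.75, 6.28 and 6.67 in tumors 1 to 6. All 6 tumors lay below all 6 MSC libraries. Slc2a3 fell by 2.54 ± 0.42 (SE) against KO MSC and fell by 2.56 ± 0.44 against WT MSC (limma, adjusted p 0.00834 and 0.00305), and without the library labelled KO_MSC 1 the former was -2.29 with an adjusted p of 0.0724. Slc2a3 is also expressed in blood cells, whose marker lists went both ways between tumors and MSCs, as given above. Ptprc, which encodes the leukocyte antigen CD45, averaged 8.63 in tumors, 6.32 in KO MSC and 6.06 in WT MSC. Slc2a1, which encodes the widely expressed transporter GLUT1, ranged from 7.60 to 9.65 over the MSCs and from 7.49 to 9.90 in tumors, with changes of 0.26 ± 0.62 and 0.07 ± 0.54 that did not pass.

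Slc2a3 minus Slc2a1 within a library was 1.05, 0.13 and 0.62 in WT MSC, 1.52, 1.60 and -0.81 in KO MSC and -1.27, -2.87, -0.81, -2.70, -3.18 and -1.36 in tumors. Such a difference between related genes cancels the scaling of a library, and 13 pairs were tested in 3 comparisons, with p-values adjusted over the 39 tests. Tumors lay below WT MSC without overlap, with a mean difference of -2.63 (exact two-sided permutation p 0.0238, adjusted p 0.186), and overlapped with KO MSC in the library labelled KO_MSC 3.

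The lactate carriers lay in opposite directions without passing. Slc16a1 (MCT1, known for uptake and release of lactate) was 10.59, 8.58 and 10.22 in WT MSC, 11.49, 11.17 and 9.60 in KO MSC and 7.77 to 9.88 in tumors with a median of 8.78. Slc16a3 (MCT4, the lactate exporter of glycolytic cells and a known HIF target) was 6.82, 6.15 and 6.13 in WT MSC, 7.77, 6.51 and 4.77 in KO MSC and 6.54 to 10.35 in tumors with a median of 8.06. Changes against KO MSC were -1.96 ± 0.57 for Slc16a1 and 1.78 ± 0.85 for Slc16a3 (limma, adjusted p 0.0698 and 0.204), and against WT MSC -1.01 ± 0.57 and 1.77 ± 0.73 (limma, adjusted p 0.213 and 0.109). Tumors overlapped with MSCs in both genes. The Slc16a3 change against KO MSC was -0.73 in batch 1 and 3.59 in batch 2, so its direction did not hold within batches.

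The difference between both lactate carriers separated tumors from MSCs. Slc16a3 minus Slc16a1 was -3.77, -2.44 and -4.09 in WT MSC, -3.72, -4.66 and -4.83 in KO MSC and -1.57, -2.25, -1.35, 2.58, -0.43 and -0.90 in tumors. All tumors lay above all MSC libraries, by 3.75 on average against KO MSC and 2.78 against WT MSC. Within batches 1 and 2 the difference was 1.99 and 5.16 against KO MSC and 2.04 and 3.68 against WT MSC. An exact two-sided permutation test over libraries gave 0.0238 in both comparisons, the smallest p that 3 against 6 libraries allow. The adjusted p was 0.186, the smallest of the 39, and no pair passed. At this smallest p, a pair can pass the adjustment over 39 tests only if most tumor tests reach it too. With 3 against 3 libraries the smallest possible p is larger still, so the lack of a call says little about the pairs.

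At the entry to glycolysis, Hk2 was 5.53, 6.66 and 6.93 in WT MSC, 6.14, 6.83 and 7.22 in KO MSC and 9.40, 8.02, 8.39, 8.76, 9.76 and 8.04 in tumors. Every tumor exceeded every MSC library. Hk2 rose by 2.00 ± 0.49 against KO MSC and by 2.36 ± 0.48 against WT MSC (limma, adjusted p 0.0392 and 0.00681). The call against KO MSC was lost without any 1 of the libraries labelled KO_MSC 1 and 2 or tumors 1, 3, 4 and 5, with changes of 1.70 to 2.06 and limma adjusted p from 0.0598 to 0.198.

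Hk1, the broadly expressed hexokinase, was 9.82, 10.22 and 10.52 in WT MSC, 10.57, 8.75 and 6.56 in KO MSC and 7.87, 7.59, 7.94, 10.93, 7.62 and 6.75 in tumors. Only tumor 4 reached the WT MSC range, and the KO MSC libraries spanned nearly the whole range of tumors. The change against WT MSC was -2.07 ± 0.74 (limma, adjusted p 0.0700), and -2.63 with an adjusted p of 0.00136 without tumor 4. Hk2 minus Hk1 was -4.29 to -3.56 in WT MSC, -4.42 to 0.66 in KO MSC and -2.17 to 2.15 in tumors. All tumors lay above WT MSC, by 4.42 on average (exact permutation p 0.0238, adjusted p 0.186), and overlapped with KO MSC.

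The phosphofructokinases, which commit sugar to glycolysis, showed no call. Pfkl, the liver-type subunit, was 10.57, 10.26 and 10.49 in WT MSC, 10.80, 9.95 and 8.83 in KO MSC and 7.26 to 10.58 in tumors with a median of 8.56. Its change against WT MSC was -1.79 ± 0.59 (limma, adjusted p 0.0528), and -2.18 without tumor 4, the highest tumor (limma, adjusted p 0.00395). Pfkm, the muscle subunit, was 12.02 in tumor 4 and 6.74 to 7.97 in the other 5, and Pfkp, the platelet subunit, was 6.98 to 9.41 in tumors. Gpi1, the glucose-6-phosphate isomerase, differed by -0.002 ± 0.73 against KO MSC and -0.17 ± 0.61 against WT MSC.

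In the lower arm of glycolysis, Pgk1, the phosphoglycerate kinase that makes the first ATP of the pathway, was 8.91, 9.16 and 9.07 in WT MSC, 9.73, 9.97 and 9.90 in KO MSC and 10.45, 11.46, 10.82, 11.91, 11.47 and 11.53 in tumors. The 3 groups did not overlap, with WT MSC lowest and tumors highest. Pgk1 rose by 2.23 ± 0.35 against WT MSC (limma, adjusted p 0.00240). Its changes of 1.40 ± 0.39 in tumor against KO MSC and 0.83 ± 0.32 in KO MSC against WT MSC did not pass (limma, adjusted p 0.0640 and 0.557).

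Ldha, the lactate dehydrogenase subunit that favours lactate, was 13.13, 12.42 and 12.81 in WT MSC, 13.51, 13.83 and 13.88 in KO MSC and 13.21 to 15.69 in tumors with a median of 14.65. It lay above WT MSC in 6 of 6 tumors and in 3 of 3 KO MSC libraries, with changes of 1.71 ± 0.61 and 0.95 ± 0.49 that did not pass (limma, adjusted p 0.0711 and 0.619). Ldhb, the other subunit, differed by 0.17 ± 0.95 against KO MSC and 0.11 ± 0.88 against WT MSC.

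Aldoa, the main aldolase outside liver and brain, was 11.88 to 12.63 in WT MSC, 11.94 to 12.53 in KO MSC and 13.09 to 16.82 in tumors with a median of 13.67. All tumors exceeded all MSC libraries, yet the changes of 1.87 ± 0.81 and 1.90 ± 0.79 did not pass (limma, adjusted p 0.175 and 0.110). Tumor 4 was the highest of them, at 16.82 against 14.61 in the next. Pgam1, the phosphoglycerate mutase of most tissues, was 8.88 to 9.68 in WT MSC, 9.44 to 9.74 in KO MSC and 9.48 to 12.02 in tumors with a median of 10.58, and its change against WT MSC was 1.52 ± 0.52 (limma, adjusted p 0.0590).

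Eno2, the neuronal enolase, was 7.03, 6.67 and 6.54 in WT MSC, 5.98, 6.81 and 4.79 in KO MSC and 4.79 to 6.47 in tumors with a median of 5.77. All tumors lay below WT MSC, by 1.01 ± 0.36 on average (limma, adjusted p 0.0681), and by 1.16 without tumor 4 (limma, adjusted p 0.0294). Eno1, the common enolase, ranged from 8.44 to 11.64 in MSCs and from 10.02 to 16.58 in tumors, and its changes of 2.13 ± 1.29 and 2.16 ± 1.22 did not pass. Aldoc and Tpi1 differed by 1.25 ± 0.55 and 1.02 ± 0.60 against KO MSC and did not pass, and Aldoc was at its floor in 4 of 6 MSC libraries.

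Gapdh was listed at or near its floor in every library, at 4.97 to 5.36 in MSCs and 4.53 to 5.91 in tumors, with 6 of the 12 values exactly at the floor. Gapdh is an abundant gene of every cell, so no level can be drawn from these values. Gapdh has many near-identical processed pseudogenes, as have other enzymes of the pathway, and the treatment of reads shared among copies is not given in the sources used here.

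None of the 4 kinases that regulate flux passed in any comparison. Pdk1 encodes a kinase that inhibits pyruvate dehydrogenase and is a known HIF target. Pdk1 was 9.12, 7.96 and 8.99 in WT MSC, 9.86, 9.89 and 8.84 in KO MSC and 8.19 to 8.90 in tumors with a median of 8.50. Its change against KO MSC was -1.0 ± 0.37 (limma, adjusted p 0.133), and it spread least among tumors of the 35 genes, with an SD of 0.30. Pdk3, Pfkfb3 and Pfkfb4 differed by -0.88 ± 0.43, 0.79 ± 0.40 and 0.19 ± 0.76 against KO MSC.

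Among the genes of oxygen sensing, Epas1, which encodes HIF-2 alpha, was 10.68, 12.15 and 11.62 in WT MSC, 9.43, 8.92 and 9.87 in KO MSC and 10.28, 7.55, 9.40, 7.79, 7.99 and 6.45 in tumors. Every tumor and every KO MSC library lay below every WT MSC library, and tumors overlapped with KO MSC. Epas1 fell by 3.24 ± 0.74 in tumors against WT MSC (limma, adjusted p 0.0112), and without the library WT_MSC 2 the change was -2.90 with an adjusted p of 0.0590. It differed by -2.08 ± 0.48 in KO MSC against WT MSC and by -1.16 ± 0.72 in tumors against KO MSC, and neither passed (limma, adjusted p 0.551 and 0.319). Within batches, the change against WT MSC was -1.60 in batch 1 and -4.48 in batch 2.

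Hif1a, which encodes HIF-1 alpha, a subunit controlled mainly at the protein level, was 9.98, 10.25 and 9.79 in WT MSC, 9.46, 9.29 and 8.60 in KO MSC and 8.65 to 10.28 in tumors with a median of 9.50. KO MSC lay below WT MSC in 3 of 3 libraries, by 0.90 ± 0.38 on average, which did not pass (limma, adjusted p 0.575). Tumor changes were 0.31 ± 0.42 against KO MSC and -0.59 ± 0.37 against WT MSC. Epas1 minus Hif1a was 0.69, 1.90 and 1.83 in WT MSC, -0.03, -0.37 and 1.27 in KO MSC and -2.29 to 0.79 in tumors, with a mean difference of -2.65 between tumors and WT MSC (exact permutation p 0.0476, adjusted p 0.206).

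Egln1, the prolyl hydroxylase PHD2 and itself a HIF target, was 6.88, 7.56 and 7.16 in WT MSC, 6.69, 7.40 and 7.81 in KO MSC and 8.83, 8.31, 8.04, 7.97, 9.12 and 7.77 in tumors. Tumors lay above WT MSC in every library and overlapped with KO MSC. Egln1 rose by 1.14 ± 0.37 against WT MSC (limma, adjusted p 0.0482), the call nearest to the threshold, and it was lost without any 1 of the 3 WT MSC libraries or of tumors 1, 2, 3 and 5, with changes of 0.98 to 1.32 (limma, adjusted p 0.0643 to 0.184). Egln3, the hydroxylase PHD3, was 5.59 to 5.83 in WT MSC, 7.01, 5.61 and 4.73 in KO MSC and 6.30 to 10.61 in tumors with a median of 7.11, with changes of 2.01 ± 0.94 and 2.08 ± 0.87 that did not pass (limma, adjusted p 0.195 and 0.112). Against KO MSC, the Egln3 change was -0.17 in batch 1 and 3.58 in batch 2.

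Of the other HIF targets, Ankrd37 passed against KO MSC and Ankrd37, Bnip3 and Car9 against WT MSC. The change was above 0 in 7 of 7 against KO MSC (median 1.12) and in 5 of 7 against WT MSC (median 1.03). Against KO MSC, Bnip3l was below 0 with quantile scaling, with library weights and without the library labelled KO_MSC 3, which left 6 of 7. Ddit4 was below 0 with batch 2 alone and with the library labelled KO_MSC 3 alone, again 6 of 7. Ankrd37 was 5.20, 5.79 and 5.30 in WT MSC, 5.05, 6.19 and 5.30 in KO MSC and 7.40, 7.35, 7.78, 7.77, 9.66 and 7.74 in tumors. All tumors exceeded all MSC libraries, of which WT_MSC 3 and the library labelled KO_MSC 3 were at the floor, so the change may be understated. It rose by 2.43 ± 0.56 against KO MSC and by 2.52 ± 0.50 against WT MSC (limma, adjusted p 0.0310 and 0.00583). The call against KO MSC was lost without any 1 of the 3 libraries labelled KO MSC or of tumors 3 and 6, with changes of 2.2 to 2.77 (limma, adjusted p 0.0512 to 0.165).

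Bnip3, a mitochondrial protein gene of hypoxic mitophagy, was 8.41, 8.28 and 7.94 in WT MSC, 7.71, 8.40 and 9.0 in KO MSC and 9.26, 9.97, 9.96, 9.43, 11.97 and 9.47 in tumors. All tumors exceeded all MSC libraries. Bnip3 rose by 1.80 ± 0.54 against WT MSC (limma, adjusted p 0.0368), while its change of 1.64 ± 0.58 against KO MSC did not pass (limma, adjusted p 0.119). The call was lost without any 1 of the WT MSC libraries or of tumors 2 and 3, with changes of 1.66 to 1.90 (limma, adjusted p 0.0566 to 0.125). Its relative Bnip3l, which also serves the clearance of mitochondria in red cells, differed by 0.20 ± 0.45 and -0.04 ± 0.35. Bnip3 minus Bnip3l was 1.84 higher in tumors than in WT MSC without overlap (exact permutation p 0.0238, adjusted p 0.186). Against KO MSC it was 1.44 higher (exact permutation p 0.143, adjusted p 0.429), and the library labelled KO_MSC 3 overlapped with tumors.

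Car9, a carbonic anhydrase of the cell surface that is used as a marker of hypoxia, was 5.07, 5.15 and 5.15 in WT MSC, 5.70, 5.15 and 5.15 in KO MSC and 5.57, 5.54, 6.19, 6.48, 6.69 and 6.46 in tumors. The 4 MSC libraries of batch 2 were at the floor, and the tumors lay above WT MSC but overlapped with the library labelled KO_MSC 1. Car9 rose by 1.03 ± 0.30 against WT MSC (limma, adjusted p 0.0340), and was lost without any 1 of the WT MSC libraries or of tumors 3 and 6, with changes of 0.97 to 1.05 (limma, adjusted p 0.0576 to 0.122).

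Adm, which encodes the vasodilating peptide adrenomedullin, was 7.69, 8.62 and 8.04 in WT MSC, 6.87, 7.18 and 4.57 in KO MSC and 6.80 to 8.43 in tumors with a median of 7.91. KO MSC lay below WT MSC without overlap, by 1.91 ± 0.74 on average (limma, adjusted p 0.556), and the library labelled KO_MSC 3 was the lowest. Ddit4, an inhibitor of mTORC1 under stress, was 5.20, 6.01 and 6.14 in WT MSC, 4.63, 6.55 and 7.86 in KO MSC and 6.03 to 9.47 in tumors with a median of 7.25. Its change against WT MSC was 1.68 ± 0.68 (limma, adjusted p 0.105), and Ndrg1, a hypoxia and differentiation gene, differed by 0.98 ± 0.51 against KO MSC and 0.44 ± 0.47 against WT MSC.

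**Figure D3:**
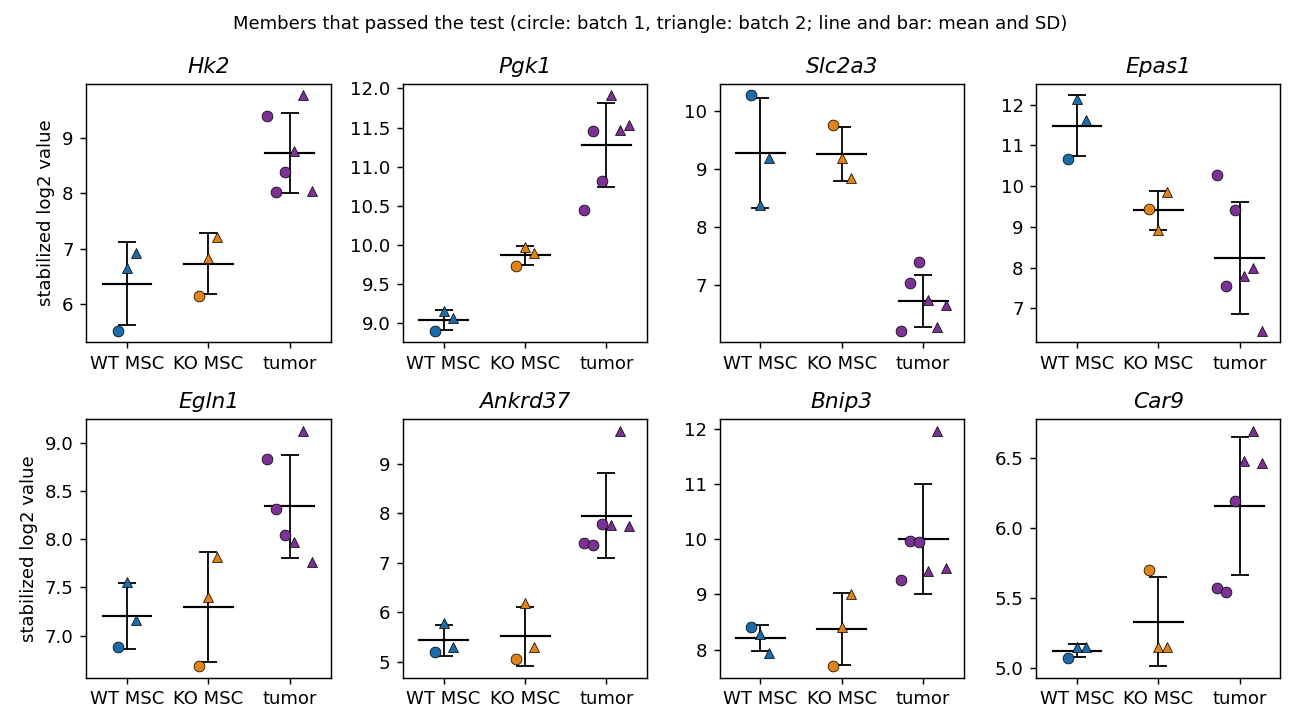
Stabilized log2 value in each library of the 8 genes that passed in tumor against WT MSC, with circles for batch 1, triangles for batch 2, a line at the mean and bars of 1 SD (3 WT MSC, 3 KO MSC and 6 tumor libraries). Hk2, Pgk1, Slc2a3, Ankrd37 and Bnip3 separate tumors from all MSC libraries, and in Pgk1 and Epas1 KO MSC and WT MSC do not overlap.

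The promoters of the 6 genes that rose are shown because the HIF dimer is known to bind the core letters ACGTG, and on some genes GCGTG. RefSeq promoter windows on GRCm38.p6, of 250 bases before to 50 after a start, were found for 31 of the 35 genes, all but Slc2a3, Bnip3l, Ndrg1 and Epas1. ACGTG or its reverse complement CACGT occurred in 24 of the 43 windows of these genes (55.8%), against 19.6% of 32851 windows of the same length. Counted by gene, it was 21 of 31 (67.7%) against 21.8% of all genes with a window. It was 6 of the 6 genes that rose, which belong to these 31 and are to be set beside the 67.7%. With GCGTG and its reverse CACGC included, the share of windows was 83.7% against 43.8%. Base composition was not matched, and a match is not a bound site. The 35 genes were chosen by name and include known HIF targets, so their higher share was to be foreseen from that choice.

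The 250 bases before the start of each of these genes follow, 5′ to 3′ on the gene's strand, with both motifs, read on either strand, in capitals. The letters CACGTG hold ACGTG on both strands and count as 2 matches. Hk2 lies on chr6:82774455-82774704 (minus strand), Pgk1 on chrX:106186850-106187099 (plus), Egln1 on chr8:124949255-124949504 (minus), Ankrd37 on chr8:45999851-46000100 (minus), Bnip3 on chr7:138909507-138909756 (minus) and Car9 on chr4:43506776-43507025 (plus).
Hk2: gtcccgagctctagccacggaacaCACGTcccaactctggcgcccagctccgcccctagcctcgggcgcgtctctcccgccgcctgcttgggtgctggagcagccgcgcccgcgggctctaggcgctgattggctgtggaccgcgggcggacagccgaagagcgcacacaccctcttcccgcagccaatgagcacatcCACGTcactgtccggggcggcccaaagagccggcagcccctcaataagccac
Pgk1: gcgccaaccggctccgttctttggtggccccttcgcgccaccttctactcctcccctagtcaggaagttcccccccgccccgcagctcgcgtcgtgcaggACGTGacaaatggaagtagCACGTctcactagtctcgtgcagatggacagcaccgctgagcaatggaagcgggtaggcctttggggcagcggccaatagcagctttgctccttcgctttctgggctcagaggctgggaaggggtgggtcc
Egln1: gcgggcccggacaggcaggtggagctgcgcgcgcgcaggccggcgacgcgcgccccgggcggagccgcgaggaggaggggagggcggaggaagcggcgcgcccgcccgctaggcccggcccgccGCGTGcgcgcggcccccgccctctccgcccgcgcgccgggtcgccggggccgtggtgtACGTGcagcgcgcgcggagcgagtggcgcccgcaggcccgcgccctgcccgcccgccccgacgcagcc
Ankrd37: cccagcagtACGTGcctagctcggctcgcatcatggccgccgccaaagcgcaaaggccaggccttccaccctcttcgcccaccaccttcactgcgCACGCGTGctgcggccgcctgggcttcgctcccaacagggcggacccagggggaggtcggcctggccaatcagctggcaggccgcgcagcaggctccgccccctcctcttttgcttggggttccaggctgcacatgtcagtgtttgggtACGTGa
Bnip3: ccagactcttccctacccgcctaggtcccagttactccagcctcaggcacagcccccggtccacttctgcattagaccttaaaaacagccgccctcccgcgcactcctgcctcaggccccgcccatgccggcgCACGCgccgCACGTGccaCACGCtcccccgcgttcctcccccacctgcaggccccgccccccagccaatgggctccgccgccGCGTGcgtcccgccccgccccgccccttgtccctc
Car9: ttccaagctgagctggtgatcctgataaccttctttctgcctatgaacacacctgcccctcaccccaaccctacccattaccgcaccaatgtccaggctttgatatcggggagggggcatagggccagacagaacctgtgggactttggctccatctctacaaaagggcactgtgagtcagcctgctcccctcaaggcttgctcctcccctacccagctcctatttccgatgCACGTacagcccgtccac
Hk2, Pgk1, Ankrd37 and Bnip3 each hold 2 matches to ACGTG or its reverse, in Bnip3 as a single CACGTG, and Egln1 and Car9 hold 1. Genes without a call also hold the letters, such as Ldha with up to 5 matches in a window and Slc16a1 with 3, and Tpi1, Gpi1 and Eno2 hold neither motif.

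The 6 tumors differed among themselves, and different members led in different tumors. Tumor 4 was the highest tumor in 14 of the 35 genes, 11 of them among the 16 enzymes (Hk1, Gpi1, Pfkl, Pfkm, Pfkp, Aldoa, Tpi1, Pgk1, Pgam1, Eno1 and Eno2). Tumor 5 was the highest in 8 genes: Hk2, and Bnip3, Bnip3l, Car9, Egln1, Egln3, Ankrd37 and Hif1a of the 11 genes of oxygen sensing and HIF targets. Tumor 5 was at the same time the lowest in 7 genes, 5 of them enzymes. How often each tumor was the highest or lowest over all tested genes was not counted. These counts therefore cannot be called particular to the 35 genes. Eno1 had the largest SD among tumors, 2.43, larger than in 99.4% of tested genes, at 10.19, 13.56, 12.16, 16.58, 10.02 and 12.99.

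Tumor 4 was also the highest in markers of mature skeletal muscle. The mean of 12 muscle markers was 8.39, 5.21, 10.26, 14.19, 6.89 and 5.96 in tumors 1 to 6, against 4.96 to 5.84 in MSCs, and 0 of the 12 passed in a comparison. None of them was at its floor in tumors 1, 3 and 4, and 6 were in tumors 2 and 6. Acta1, skeletal muscle actin, was 19.28 in tumor 4 and 14.04 in tumor 3. Muscle is rich in glycolytic enzymes, and Pfkm and Aldoa are its forms. Tumor 4 was highest, too, in macrophage markers (14.20) and endothelial markers (9.21). The part of muscle, macrophages and endothelium in the tumor 4 values was not tested. Without tumors 3 and 4, 9 genes passed against WT MSC, beside 20.7% of all genes: Hk2, Pgk1, Slc2a3, Epas1, Ankrd37 and Egln1 still did, Hk1, Pfkl and Pfkm, all lower, were added, and Bnip3 and Car9 no longer passed. Against KO MSC 1 gene, Slc2a3, passed, beside 1.71% of all genes, and Hk2 and Ankrd37 no longer did.

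**Figure D4:**
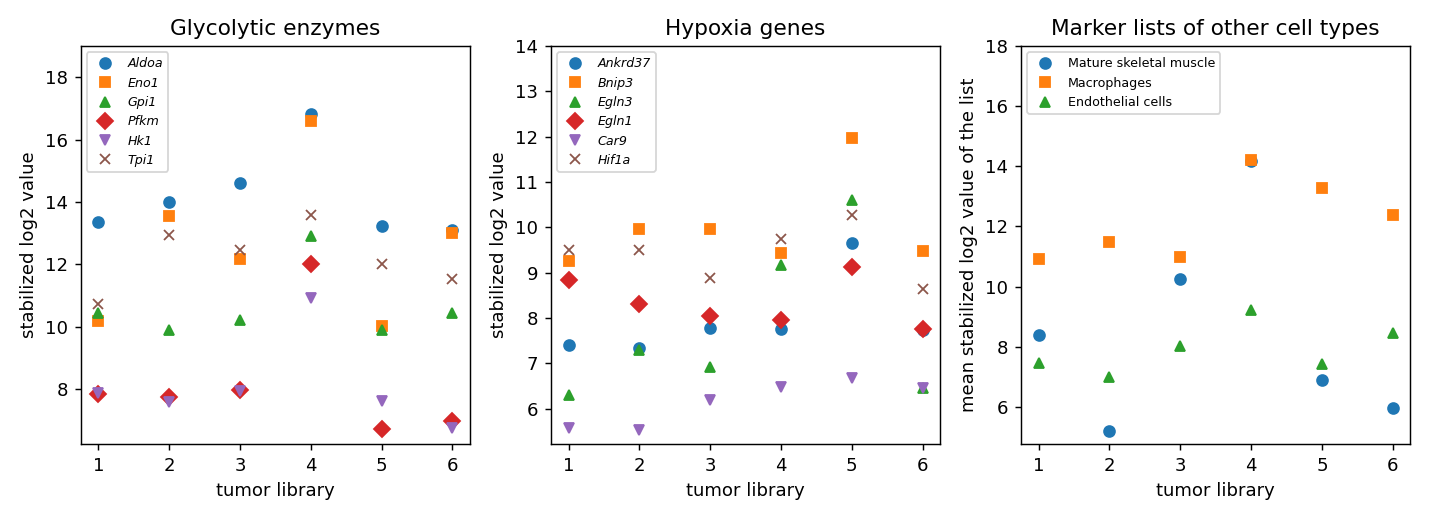
Stabilized log2 value in the 6 tumor libraries of 6 enzymes (left) and 6 hypoxia genes (middle), chosen after their values were seen, and the mean of 3 marker lists (right). Aldoa, Eno1, Gpi1, Pfkm, Hk1 and Tpi1 are highest in tumor 4, where muscle markers average 14.19, and Ankrd37, Bnip3, Egln3, Egln1, Car9 and Hif1a are highest in tumor 5, where they average 6.89.

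Other genes of the same pathways gave mixed counts. Of 19 further genes of glycolysis and sugar transport, 0 rose and 2 fell against KO MSC, and 0 rose and 4 fell against WT MSC. Pklr, the pyruvate kinase of liver and red cells, fell by 4.28 against KO MSC and fell by 3.43 against WT MSC (limma, adjusted p 0.00296 and 0.00135), being at its floor in all 6 tumors, beside the lower erythroid markers given above. Pkm, the pyruvate kinase of most tissues, chosen for mention after its values were seen, was 2.57 ± 0.93 higher against KO MSC and did not pass (limma, adjusted p 0.126). Minpp1, an inositol phosphate phosphatase that also acts on bisphosphoglycerate, fell by 2.60 and Gpd1l by 1.68 against WT MSC, and Slc2a8, a glucose transporter, fell by 1.77 against KO MSC and by 1.35 against WT MSC.

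Of 14 genes of pyruvate use, none passed against KO MSC, while against WT MSC Mpc1, a subunit of the mitochondrial pyruvate carrier, rose by 2.00 and Pcx, pyruvate carboxylase, and Pdp2, a pyruvate dehydrogenase phosphatase, fell by 2.19 and fell by 1.14, in that order. Of 21 genes of the pentose phosphate pathway and other branches, Gfpt1, the entry enzyme of hexosamine synthesis, rose by 1.60 against KO MSC. Against WT MSC, Pgls rose by 1.26, and G6pdx fell by 1.88, H6pd fell by 3.31 and Gbe1 fell by 1.19. G6pdx and H6pd encode dehydrogenases that open the pentose phosphate pathway in the cytosol and the endoplasmic reticulum, and Gbe1 the branching enzyme of glycogen.

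Of 14 further genes of oxygen sensing, Tceb2, which encodes elongin B of the VHL ubiquitin ligase, rose by 2.91 against KO MSC. Against WT MSC, Tceb2, Rbx1 and Tceb1, subunits of that ligase, rose by 3.80, 3.40 and 2.82. Hif3a and Cited2, known as restraints on HIF activity, fell by 1.09 and fell by 1.92. Hif3a was at its floor in 8 of the 12 libraries, with 4.62 or 4.88 in every tumor against 5.65 to 6.18 in WT MSC. Of 34 further HIF targets tested, 2 rose against KO MSC, Stc2 by 1.83 and Mif by 2.83, beside 2.7% of all genes. Stc2 was at its floor in 5 of the 12 libraries. Against WT MSC, 5 rose and 5 fell, beside 10.4% of all genes higher and 10.9% lower. Hilpda, a lipid droplet protein gene, rose by 2.88, Mif, a cytokine gene, by 3.76, Fam162a by 2.34, Higd1a by 3.55 and Stc2 by 2.01. Kdm4b, a histone demethylase gene, fell by 1.86, Lox fell by 1.95, Mxi1 fell by 1.68, Gbe1 fell by 1.19 and Angptl4 fell by 2.46. The medians of that list were 0.58 and -0.28, and in KO MSC against WT MSC no gene of any of these lists passed.

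The libraries labelled KO MSC were uneven in Hilpda. Hilpda was 7.55, 7.74 and 7.43 in WT MSC, 7.40, 8.23 and 10.29 in the libraries labelled KO_MSC 1, 2 and 3 and 9.75 to 11.27 in tumors, so that the library labelled KO_MSC 3 lay within the tumor range.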

How the data were processed

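RNA was measured by bulk sequencing of cDNA from a low-input kit (SMART-Seq v4), with libraries that do not mark strand, so reads of overlapping antisense genes cannot be told apart. The submitters' processing notes name the build mm10 and, without roles, Cuffdiff, Cufflinks 2.2.1 and TopHat2 2.0.13. How reads became the deposited values is not stated in them. The authors deposited log2 values titled as variance-stabilized and batch-adjusted for 24421 genes, of which 1451 equalled 4.75 in every library. Their other deposited table, titled as normalized counts, holds a score and not counts: for 100% of its 18949 genes it is the stabilized value times 1 factor per library, and served as filter and alternative. Reads could not be recovered, so the depth is unknown and no count test was possible.

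The members, roles, lists, named-gene rule and tests were chosen with earlier results of these data known. Only the libraries of both groups entered a comparison's fit, by limma 3.58.1 under R 4.3.3 (two-sided, lmFit, eBayes with a trend, no covariate), with Benjamini-Hochberg adjustment over 18948 genes and a threshold of 0.05. The fit was tested on simulated data. Pairs of related genes were tested by exact two-sided permutation over libraries in scipy 1.17.1. A gene was given in every library if it passed in any comparison, and those with the next smallest p were added up to 20. Up to 5 genes per further list with the smallest adjusted p were named, and Trp53 to check the labels. Of the further HIF targets, all that passed were named. Batches were read from exactly shared floor values: in 8352 genes both batches have a floor, and these mirror each other around 4.75. A gene without reads can thus have different values in both batches, and p-values take no account of the authors' batch adjustment and can be too small. Promoter letters came from RefSeq windows on GRCm38.p6. Alternatives were batch terms and single batches, filters, scalings, library weights, the other table, a replicate block, a joint fit and each library left out; leaving out tumors 3 and 4, and keeping only the library labelled KO_MSC 3, were added after the data were seen.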

Additional observations from a re-analysis of the deposited data

Results flagged for a closer look

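In 6 of the 35 genes, the highest tumor stood apart from the other 5 by a gap that is large for the range of the 6 tumors (Dixon's 95% criterion). Chance flags about 1 in 20 groups, and the share of all tested genes so flagged was not counted. Tumor 4 stood apart in Hk1 at 10.93 (next 7.94), in Gpi1 at 12.91 (next 10.44) and in Pfkm at 12.02 (next 7.97), and it also had the highest mean of muscle markers, 14.19, whose part in these values was not tested. Tumor 5 stood apart in Bnip3 at 11.97 (next 9.97) and in Ankrd37 at 9.66 (next 7.78). Gapdh was 5.91 in tumor 1, while the other 5 tumors were at the floors of their batches, 4.53 and 4.97.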

How the results depend on the processing

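For genes with an unadjusted p under 0.05 in a comparison, none of the 708 changes under an alternative turned direction. Of these, 588 kept their side of the threshold or, where there was no test, stayed within 1 SD. A further 69 no longer passed, 50 newly passed and 1 without a test moved. For the 9 of 39 pair results with an unadjusted exact p under 0.05, none of 108 alternative values turned direction. These genes and pairs were picked by p-value in libraries that the alternatives reuse, so a steady direction was largely set in advance. Over all results, the 2 batches did not share a sign in 15 of the 39 pair results (Egln3 minus Egln1 against KO MSC was 0.97 over both batches, -1.88 in batch 1 and 2.90 in batch 2) and in 36 of the 105 changes of the 35 genes, 19 of them in KO MSC against WT MSC. Against KO MSC, where 3 of the 35 genes passed, the count was 3 with batch 1 alone (Hk1 and Pfkm, lower, and Ankrd37, the only one shared), 0 with batch 2 alone, 5 among genes with a mean of at least 7, 13 with library weights, 5 with 1 fit over 3 groups, 1 without tumors 3 and 4 and 0 with the library labelled KO_MSC 3 alone; leaving out each library in turn gave 0 to 4 (0 without the library labelled KO_MSC 1, and 1 without that labelled KO_MSC 2 or without tumor 3). Against WT MSC, where 8 passed, the count was 2 with batch 2 alone and 19 with library weights. It was 4 to 12 leaving out each library (4 without WT_MSC 2, and 5 without WT_MSC 1, WT_MSC 3 or tumor 3). For KO MSC against WT MSC, where 0 passed, the count was 3 with library weights and 0 to 0 leaving out each library. The share of all genes that passed moved as well. With library weights it was 25.4% against KO MSC, 36% against WT MSC and 12.9% in KO MSC against WT MSC. It was 10.1% against KO MSC with 1 fit over 3 groups. With batch 2 alone it was 1.21% against KO MSC and 4.09% against WT MSC. Leaving out each library gave 0.596% to 8.59% against KO MSC and 9.8% to 25% against WT MSC. The causes were not tested, except that single batches leave fewer libraries. The weights' estimation stopped before it converged in tumor against KO MSC and in KO MSC against WT MSC. Over all genes, the count of 944 against KO MSC ranged from 47 (replicate block) to 4821 (library weights). That of 4033 against WT MSC ranged from 775 (batch 2 alone) to 6821 (library weights). In KO MSC against WT MSC it was 0, and 2447 with library weights. Upper-quartile centring moved the median of all genes by 0.10 against WT MSC in both comparisons with them.

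Deviations of same-numbered libraries correlated at -0.06, -0.11 and 0.09 for tumor and KO MSC. They correlated at -0.27, -0.19 and -0.05 for tumor and WT MSC, and at 0.24, 0.15 and -0.15 for KO and WT MSC. Differently numbered libraries gave -0.32 to 0.30. With deviations from means of 3 libraries and batches unlike between groups, this cannot tell whether the replicate numbers pair the libraries. With the replicate block, which keeps 3 of the 6 tumors, 0 of the 35 genes passed against KO MSC, beside 0.248% of all genes. In that setting 3 passed against WT MSC, beside 6.3% of all genes, and 0 in KO MSC against WT MSC, beside 0%. Depth is unknown, and no counting interval can be given.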
